A study of Mus musculus with 15 samples.

Results

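EO771.LMB is a metastatic derivative of the EO771 mouse mammary tumour line, and its primary tumours were compared here with those of the line it came from, gene by gene and tumour by tumour. The comparison took 6 of the 15 tumours in the series, 3 of EO771.LMB and 3 of EO771, and the other 9 came from the lines 67NR, 4T1.2 and EMT6.5 grown in Balb/c mice. Both sets grew in the fourth mammary fat pad of female C57Bl/6 mice, which the labels give as 6 to 8 weeks old and the methods as somewhat older, and were harvested at 400 to 600 mm3. EO771 arose as a spontaneous mammary tumour of this strain. EO771.LMB was obtained from EO771 cells carrying an mCherry retroviral vector, by repeated growth in the fat pad and recovery from lung, and goes back to 1 lung nodule, so it stands for one selected population. Whether the EO771 cells grown for the arrays carried the same vector is not given in the sources used here. The labels class EO771 tumours as non-metastatic and give no treatment for either group. RNA of whole tumours was measured on Affymetrix mouse gene arrays and each value is a log2 signal, so a difference of 1 is a doubling. The values of a group are given throughout in the order of its mice 1, 2 and 3. Each animal gave 1 array, and with 3 against 3 the number of arrays limits the precision.

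A tumour grown in the fat pad is a mixture. Carcinoma cells lie among blood vessels lined by endothelium, adipocytes left from the pad, fibroblasts, and leukocytes that arrive through the vessels, and the transplanted line has to recruit all of these from the host. Metastatic derivatives of a line can differ from it in genes the carcinoma cells use themselves, such as those of adhesion, secreted factors and metabolism, or in the host tissue they carry. In RNA of a whole tumour, fewer cells of a type and less RNA per cell cannot be told apart. Genes are therefore given below in 2 sets, those that mark host cells and those of the tumour cells, and genes that either can express, such as interferon-induced genes, stand by themselves.

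The labelled tissue was checked on markers first. Vim, the intermediate filament of mesenchymal cells, read from 12.92 to 13.04 over the 6 tumours, and the keratin Krt8 from 10.25 to 10.88. The epithelial adhesion genes were dim: Epcam lay between 5.10 and 6.17, and Cdh1, E-cadherin, between 5.47 and 6.07, both under the median of 6.40 over all probe clusters. Krt5 and Krt14, keratins of basal epithelium, read from 5.13 to 5.75. The tumours of both groups thus carried keratin 8 and vimentin at high signal with low signal of E-cadherin and Epcam. Within that low range Cdh1 was lower in EO771.LMB, without overlap (-0.36 ± 0.17).

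Expression of most genes was close between the groups. Over 22008 genes, each read from its brightest probe cluster, the median difference (EO771.LMB minus EO771) was 0.018, the middle 9 in 10 genes lay between -0.334 and 0.291, and 89 genes differed by more than 1, of which 83 were lower and 6 higher in EO771.LMB. A limma model of all 15 tumours tested 35556 probe clusters and, at an adjusted p under 0.05, called 7 lower in EO771.LMB (0.0197%) and 0 higher (0%); at an unadjusted p under 0.05 it called 1560 lower (4.39%) and 1392 higher (3.91%). The count differed with the set of clusters that entered the fit. With 1 cluster per gene, 34 genes were called lower and 14 higher, and 6 of those 34 were the named genes among the 7. The 2 sets are given in turn, the 7 first, and whether the groups overlapped is given for each.

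Cdh5 encodes VE-cadherin, the adhesion molecule of endothelial junctions, and was the strongest call. Its signal was 10.55, 10.99 and 10.58 in EO771 against 9.24, 9.06 and 9.18 in EO771.LMB. The groups were far apart and each was tight, with means of 10.71 ± 0.24 and 9.16 ± 0.09 (SD, n = 3). Cdh5 fell by 1.55 ± 0.12 on the log2 scale (SE), to 0.343 of its level in EO771 (limma adjusted p = 2.2e-04).

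Pdpn encodes podoplanin, a glycoprotein of lymphatic endothelium and of some fibroblasts and macrophages. It read 8.80, 8.72 and 8.66 in EO771 against 7.55, 7.22 and 7.13 in EO771.LMB. Every EO771.LMB tumour was more than 1 unit below every EO771 tumour, and Pdpn fell by 1.43 ± 0.19 (adjusted p = 0.0224).

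Trim36, which encodes a RING-finger ubiquitin ligase, gave 7.16, 7.14 and 7.28 in EO771 against 5.89, 6.05 and 5.95 in EO771.LMB. Its values were tight within each group, and it fell by 1.23 ± 0.13 (adjusted p = 0.00235). Pla2g16 (Plaat3 in RefSeq), a phospholipase abundant in adipose tissue, gave 7.23, 6.95 and 7.06 in EO771 against 6.18, 5.78 and 5.90 in EO771.LMB. It fell by 1.13 ± 0.16 (adjusted p = 0.0368), the weakest of the 7 calls. Adipocyte genes, given below, were lower in the same tumours, and their part in this difference was not tested. The transcript A130057D12Rik fell by 1.02 ± 0.11 (adjusted p = 0.00235), from 6.82, 6.45 and 6.5 to 5.73, 5.54 and 5.44. A transcript listed only as ENSMUSG00000062319 fell by 2.20 ± 0.20 (adjusted p = 5.6e-04), the largest of the called differences: it read 7.38, 7.29 and 7.31 in EO771 against 5.21, 5.19 and 4.98 in EO771.LMB. The last call was a cluster with no gene name, which fell by 0.82 ± 0.11 (adjusted p = 0.0267). In all 7 the groups did not overlap.

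The test of 1 cluster per gene added 28 lower and 14 higher genes, all of them short of the threshold when every cluster was tested (adjusted p from 0.0627 to 0.142 there). Ubd, a ubiquitin-like modifier induced by interferon, showed the largest of the added differences after those of Car3 and of OTTMUSG00000007428, a transcript known only by that identifier. It read 7.99, 7.11 and 7.94 in EO771 against 6.16, 5.53 and 5.27 in EO771.LMB, a difference of -2.03 ± 0.32 (adjusted p over genes = 0.0149). H2-DMa, which loads peptides on class II molecules, gave 8.31, 7.82 and 7.55 in EO771 against 6.77, 6.43 and 6.73 in EO771.LMB (adjusted p over genes = 0.0235). Il1rl2, a receptor of the interleukin 36 cytokines, differed by -0.92 ± 0.15 and Il1rn, the interleukin 1 receptor antagonist, by -0.70 ± 0.13. Ctsc, the protease that activates granule enzymes, differed by -0.51 ± 0.09, and Runx3, a transcription factor of cytotoxic lymphocytes, by -0.82 ± 0.16. Ceacam1, an adhesion molecule of epithelium, vessels and leukocytes, differed by -1.16 ± 0.18. The adipocyte genes Car3, Cfd and Retn and the endothelial gene Ecscr were also among the 28.

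Among the 14 higher genes, Enpp3, an ectonucleotidase, had the largest difference. It read 6.72, 7.37 and 6.94 in EO771 against 7.89, 8.64 and 8.64 in EO771.LMB (1.38 ± 0.24, adjusted p over genes = 0.0235). Prkg2, a cGMP-dependent protein kinase, read 6.01, 6.65 and 6.05 in EO771 against 6.93, 7.57 and 7.55 in EO771.LMB (1.11 ± 0.20). In both genes EO771.LMB mouse 1 was the lowest of its group but above every EO771 tumour. Mmp3, the matrix metalloproteinase stromelysin 1, read 8.31, 8.75 and 8.59 in EO771 against 9.87, 9.36 and 9.70 in EO771.LMB, and here EO771.LMB mouse 1 was the highest (1.09 ± 0.18, adjusted p over genes = 0.0211). Pappa2, a protease that cleaves insulin-like growth factor binding proteins, differed by 0.85 ± 0.17, the matrix protein gene Matn2 by 0.81 ± 0.14 and Ndst3, an enzyme of heparan sulphate synthesis, by 0.80 ± 0.14. The transcription factor genes Sox5 and Pax6 differed by 0.56 ± 0.10 and 0.59 ± 0.11, the retinol dehydrogenase gene Rdh11 by 0.65 ± 0.11, and Klhl23 by 0.75 ± 0.12.

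Some of the largest differences were not called in either test. Mup2, a major urinary protein, read 11.69, 11.68 and 11.73 in EO771 against 10.13, 9.28 and 6.86 in EO771.LMB, so that the EO771 tumours were alike while the EO771.LMB tumours spread over more than 3 units (-2.94 ± 0.67, adjusted p = 0.182). Mup1 read 9.77, 9.59 and 9.67 in EO771 against 8.60, 7.68 and 6.87 in EO771.LMB (-1.96 ± 0.49). The Mup genes are near-identical copies that the array may not separate. Among the larger positive differences, Ccbe1, a secreted factor of lymphatic vessel growth, read 7.29, 6.90 and 7.25 in EO771 against 7.77, 7.92 and 8.18 in EO771.LMB (0.81 ± 0.17). Islr, a membrane protein of mesenchymal cells, differed by 0.80 ± 0.20 and Efhb by 0.89 ± 0.19, and 2010002N04Rik, EG236749 and 1810032O08Rik by 0.93 ± 0.27, 0.81 ± 0.29 and 0.80 ± 0.20. All were above the EO771 tumours in each EO771.LMB tumour, and none had an adjusted p under 0.149.

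**Figure D1:**
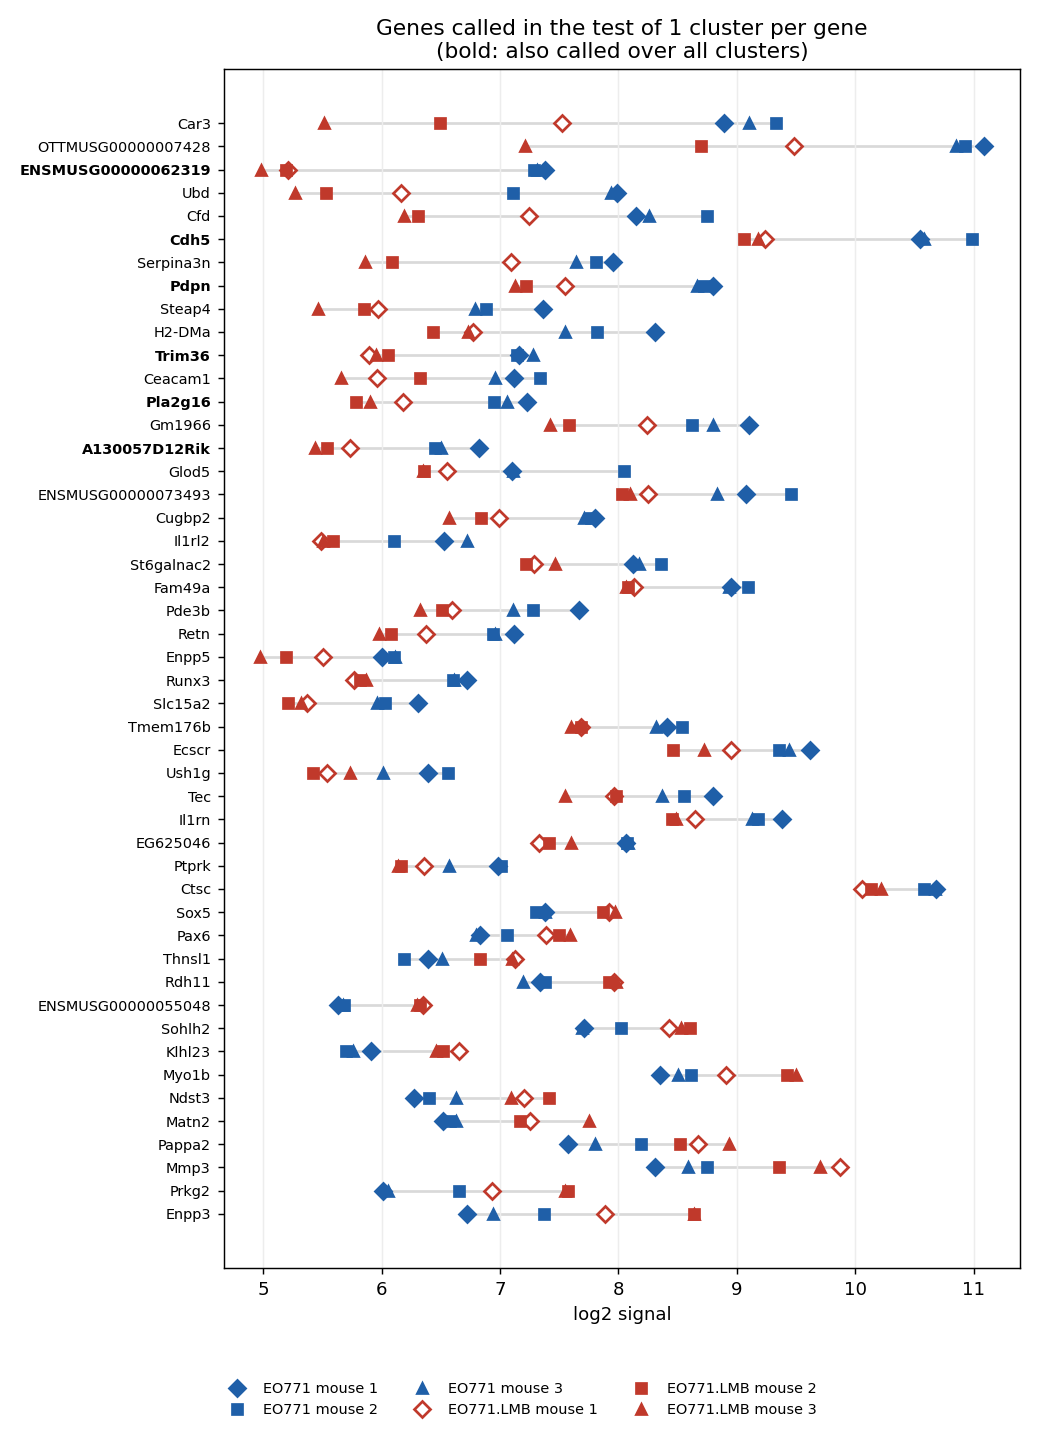
Log2 signal (horizontal axis) in each of the 6 tumours of the 34 lower and 14 higher genes called in the test of 1 cluster per gene, ordered by difference; blue symbols are EO771 and red symbols EO771.LMB, with EO771.LMB mouse 1 as an open diamond, and grey bars span the 6 values. In every gene shown the EO771.LMB and EO771 tumours did not overlap, and in Car3 the EO771.LMB tumours spread from 5.51 to 7.52.

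Genes on the lists of host cell types were more often lower in EO771.LMB than genes at large. Those lists include secretory mammary epithelium and keratinocytes, whose genes mammary carcinoma cells may express too. Not every gene counted is thus a gene of host cells alone. Of 316 genes on 17 lists of host cell types, 60 (19.0%) were lower and 11 (3.48%) higher at an unadjusted p under 0.05, against 4.52% lower and 4.29% higher over all genes. In 61 of the 316 (19.3%) every EO771.LMB tumour lay below every EO771 tumour, against 7.18% of all genes, and in 14 (4.43%) above, against 8.86%. Over 342 genes on 13 lists of tumour-cell programmes, 20 (5.85%) were lower and 24 (7.02%) higher, and 33 (9.65%) were lower and 37 (10.8%) higher without overlap. The 143 genes on 5 lists that either can express had the largest shares, with 31 (21.7%) lower and 2 (1.40%) higher, and 41 (28.7%) lower and 4 (2.80%) higher without overlap. The medians were -0.13, -0.01 and -0.16 in turn. The host and tumour-cell sets share 17 genes, genes of one cell type move together, and the lists were chosen with results of these data known, so these counts are a description without a test.

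At an unadjusted p under 0.05, 11 of 35 blood endothelium genes were lower and 0 higher, against 4.52% and 4.29% of all genes. Without overlap 13 of the 35 were lower, against 7.18%. The median difference was -0.16, far smaller than that of Cdh5. A score for each tumour, the mean over the genes of the log2 difference from the average of the 6 tumours, was 0.12, 0.24 and 0.12 in EO771 against -0.06, -0.23 and -0.18 in EO771.LMB. The 3 EO771.LMB tumours were below the 3 EO771 tumours, with mouse 1 nearest to them. Ecscr, a regulator of endothelial cell movement, read 9.62, 9.36 and 9.44 in EO771 against 8.95, 8.46 and 8.72 in EO771.LMB (-0.76 ± 0.15). Pecam1, the adhesion molecule CD31, read 8.60, 8.60 and 8.30 in EO771 against 8.06, 7.95 and 7.82 in EO771.LMB (-0.56 ± 0.14). Tie1 and Erg, an endothelial receptor and transcription factor, differed by -0.37 ± 0.13 and -0.31 ± 0.11. Other endothelial genes hardly differed: Eng, endoglin, read 8.84, 8.89 and 8.81 in EO771 against 8.79, 8.72 and 8.85 in EO771.LMB, and Robo4 differed by 0.01 ± 0.09. Fabp4 and Cd36, which capillary endothelium shares with adipocytes, are on both lists. In the other 3 lines Cdh5 averaged 9.81 in 67NR, 9.42 in 4T1.2 and 9.66 in EMT6.5, below its mean of 10.71 in EO771 and above that of 9.16 in EO771.LMB.

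Of the 8 measured genes of lymphatic endothelium, Pdpn and Lyve1 were lower and no other passed an unadjusted p of 0.05. Over all genes 4.52% were lower at that threshold. Lyve1, the hyaluronan receptor, read 8.49, 9.0 and 8.59 in EO771 against 8.34, 7.55 and 7.36 in EO771.LMB, so that the tumour of EO771.LMB mouse 1 lay close to the EO771 range (-0.94 ± 0.30, adjusted p = 0.385). Prox1, the transcription factor that defines these vessels, read 5.44, 5.26 and 5.70 in EO771 against 5.47, 5.16 and 5.28 in EO771.LMB, and the groups overlapped.

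Adipocyte genes showed some of the largest differences. Of 24 measured, 10 were lower and 0 higher at an unadjusted p under 0.05, against 4.52% and 4.29% of all genes. In 11 the groups did not overlap and all 11 were lower, against 7.18% of all genes. The median was -0.25, since many of the 24 (Pparg, Lep, Plin and others) differed little. The score was 0.28, 0.32 and 0.29 in EO771 against -0.09, -0.35 and -0.45 in EO771.LMB: the EO771 tumours were alike and EO771.LMB mouse 1 stood between them and mice 2 and 3. Car3, a carbonic anhydrase that adipocytes hold in abundance, read 8.89, 9.33 and 9.10 in EO771 against 7.52, 6.49 and 5.51 in EO771.LMB (-2.60 ± 0.47, adjusted p = 0.0828). Cfd, the adipokine adipsin, read 8.15, 8.75 and 8.26 in EO771 against 7.24, 6.31 and 6.19 in EO771.LMB (-1.81 ± 0.34). In both genes mouse 1 was the highest EO771.LMB tumour and still below every EO771 tumour. Adipoq, adiponectin, read 6.70, 6.78 and 7.08 in EO771 against 6.23, 4.81 and 4.85 in EO771.LMB (-1.56 ± 0.39, adjusted p = 0.227). Cd36, the fatty acid translocase, read 9.20, 9.79 and 9.56 in EO771 against 8.90, 7.43 and 7.69 in EO771.LMB (-1.51 ± 0.33). Fabp4, a fatty acid binding protein, read 10.08, 10.23 and 9.81 in EO771 against 9.83, 8.21 and 8.24 in EO771.LMB, and mouse 1 overlapped the EO771 tumours. Cidec, which coats lipid droplets, differed by -0.97 ± 0.23 and Retn, resistin, by -0.87 ± 0.15, while Pparg, the transcription factor of adipocyte differentiation, differed by -0.11 ± 0.12 and Lep, leptin, by -0.05 ± 0.13. Pla2g16, called above, is not on the list.

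Lymphocyte genes were lower too, with more spread in the EO771 group. Of 23 T cell genes 10 were lower and 0 higher, against 4.52% and 4.29% of all genes. Without overlap 9 were lower, against 7.18%. The T cell list had a median of -0.48. Its score was 0.55, 0.09 and 0.15 in EO771 against 0.01, -0.36 and -0.44 in EO771.LMB. EO771 mouse 1 was the highest and EO771.LMB mouse 1 was just below the lowest EO771 tumour. Icos, a costimulatory receptor of activated T cells, read 7.71, 7.13 and 7.58 in EO771 against 6.84, 6.54 and 6.25 in EO771.LMB (-0.93 ± 0.22). Cd8a, the CD8 coreceptor, read 8.05, 7.28 and 7.10 in EO771 against 6.82, 6.21 and 6.44 in EO771.LMB (-0.99 ± 0.32). Cd3e, of the T cell receptor complex, read 7.48, 7.15 and 6.84 in EO771 against 6.81, 5.97 and 5.88 in EO771.LMB (-0.93 ± 0.36). In all 3 genes EO771.LMB mice 2 and 3 were the lowest of the 6 tumours. Cd5 differed by -0.43 ± 0.19. Foxp3, the regulator of regulatory T cells, differed by -0.15 ± 0.15. On the NK and cytotoxic granule list 4 of 20 were lower and 1, the transcription factor gene Eomes, higher, against 4.52% and 4.29%. Gzmf, a granzyme, read 8.40, 6.40 and 8.38 in EO771 against 5.30, 6.02 and 5.88 in EO771.LMB (-2.00 ± 0.71), with EO771 mouse 2 well below the other two EO771 tumours. The NK receptor genes Klrc1 and Klrd1 differed by -0.86 ± 0.31 and -0.47 ± 0.22. Granzymes C to G are near-identical copies and the array may not separate them. Of 14 B cell genes 2, Cd22 (-1.03 ± 0.40) and Blnk (-0.68 ± 0.29), were lower and none avoided overlap, although the median was -0.69. The B cell score was 1.03, 0.29 and -0.27 in EO771 against 0.16, -0.63 and -0.58 in EO771.LMB: the EO771 tumours alone spread over more than 1 unit. Ms4a1, CD20, read 8.49, 7.30 and 5.99 in EO771 against 6.88, 5.50 and 5.20 in EO771.LMB, with EO771 mouse 1 the highest here too.

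Myeloid lists had smaller medians. On the macrophage list 4 of 29 were lower and 0 higher (median -0.20), against 4.52% and 4.29% of all genes. Without overlap 7 were lower, against 7.18%. The macrophage score was 0.15, 0.00 and 0.14 in EO771 against -0.16, -0.08 and -0.05 in EO771.LMB, with EO771.LMB mouse 1 the lowest. Mertk, a receptor for dying cells, read 9.01, 8.85 and 8.85 in EO771 against 8.69, 8.38 and 8.40 in EO771.LMB (-0.41 ± 0.11), without overlap. Lyz2, lysozyme, read 11.45, 11.24 and 11.43 in EO771 against 10.98, 10.92 and 11.11 in EO771.LMB (-0.37 ± 0.13). Cd68, a lysosomal protein of macrophages, differed by -0.29 ± 0.12. Adgre1, which encodes F4/80 and is listed as Emr1, differed by -0.23 ± 0.17. On the neutrophil list 6 of 21 were lower and 2 higher, against 4.52% and 4.29% of all genes. One of the higher was S100a8, a calcium-binding protein of neutrophils, at 6.43, 6.66 and 6.22 in EO771 against 7.09, 7.23 and 7.61 in EO771.LMB (0.87 ± 0.25). Its EO771 signal was near the median of 6.4 over all probe clusters. By PCR the study also found S100a8 higher in sorted and in cultured EO771.LMB tumour cells. It proposes that tumour epithelium might be the main source, so S100a8 is not a gene of host cells alone. The other higher gene was Ly6g, the neutrophil surface antigen, at 8.74, 8.38 and 8.92 in EO771 against 9.08, 9.01 and 8.93 in EO771.LMB (0.33 ± 0.12), where the nearest tumours of the groups almost met. Ly6g averaged 4.57 in 67NR, 4.95 in 4T1.2 and 4.61 in EMT6.5. These lines grew in Balb/c mice, so line and mouse strain cannot be told apart in that step. S100a8 averaged 7.90 in 4T1.2, above its mean of 6.44 in EO771, so the 2 genes did not go together across lines. The lower ones included Cxcr2, listed as Il8rb (-0.83 ± 0.31), Lcn2 (-0.92 ± 0.34) and Il1b (-0.62 ± 0.29), so the list went both ways. Of 14 dendritic cell genes 3 were lower, against 4.52% of all genes. Their list had a median of -0.03, with 8 differences negative and 6 positive. The 3 lower were Flt3, the receptor on which dendritic cells depend (-0.48 ± 0.11), Siglech (-0.47 ± 0.18) and the class II gene H2-DMb2 (-0.83 ± 0.32).

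Fibroblasts, pericytes and muscle showed no such shift. Of 35 genes of fibroblasts and matrix 3 were lower and 4 higher, against 4.52% and 4.29% of all genes, with a median of -0.08. Lox, lysyl oxidase, read 6.84, 7.03 and 6.98 in EO771 against 6.68, 6.04 and 5.76 in EO771.LMB (-0.79 ± 0.20). Pdgfra, the fibroblast receptor for platelet-derived growth factor, read 10.30, 10.48 and 10.33 in EO771 against 10.63, 10.69 and 10.67 in EO771.LMB (0.29 ± 0.11). The lists of pericytes and smooth muscle, skeletal muscle and Schwann cells had medians of -0.01, 0.08 and 0.03. Those of mast cells and of keratinocytes and hair had medians of -0.19 and -0.03. Acta2, smooth muscle actin, read 8.82, 8.48 and 8.31 in EO771 against 8.01, 7.93 and 8.10 in EO771.LMB (-0.52 ± 0.17). The matrix genes Mfap5 and Ogn differed by -0.50 ± 0.23 and -0.39 ± 0.14, the mast cell protease gene Cpa3 by -0.91 ± 0.33 and Kit by -0.37 ± 0.18. Ckm, muscle creatine kinase, differed by 0.33 ± 0.13, Krt10 by 0.31 ± 0.12, and the myelin gene Mbp by -0.22 ± 0.10. Genes of red cells and platelets had a median of 0.17, with Hbb-b1, a haemoglobin chain, at 8.67, 8.79 and 7.96 in EO771 against 8.81, 10.01 and 9.29 in EO771.LMB, and Epb4.2, a red cell membrane protein, different by 0.30 ± 0.14. The list of secretory mammary epithelium had a median of 0.08, yet held one of the largest differences of the comparison. Glycam1, a mucin of milk and of the venules through which lymphocytes enter tissue, read 10.05, 9.32 and 9.21 in EO771 against 8.22, 5.02 and 5.07 in EO771.LMB. Its difference of -3.43 ± 1.10 carried an adjusted p of 0.391, and EO771.LMB mouse 1 lay more than 3 units above mice 2 and 3. Prlr, the prolactin receptor, read 7.27, 7.64 and 7.16 in EO771 against 6.58, 5.40 and 5.13 in EO771.LMB (-1.65 ± 0.69). The study proposes that weaker Prlr signalling might account for the lower Glycam1 of EO771.LMB. Whether host or tumour cells were the source of either transcript was not tested. Csn3, kappa casein, read 7.16, 6.59 and 7.01 in EO771 against 6.43, 5.77 and 5.84 in EO771.LMB, lower without overlap (-0.91 ± 0.36, adjusted p = 0.515), whereas the caseins Csn2 and Csn1s2a differed by 0.04 ± 0.15 and 0.22 ± 0.13 and the whey protein gene Wap by 0.27 ± 0.11.

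**Figure D2:**
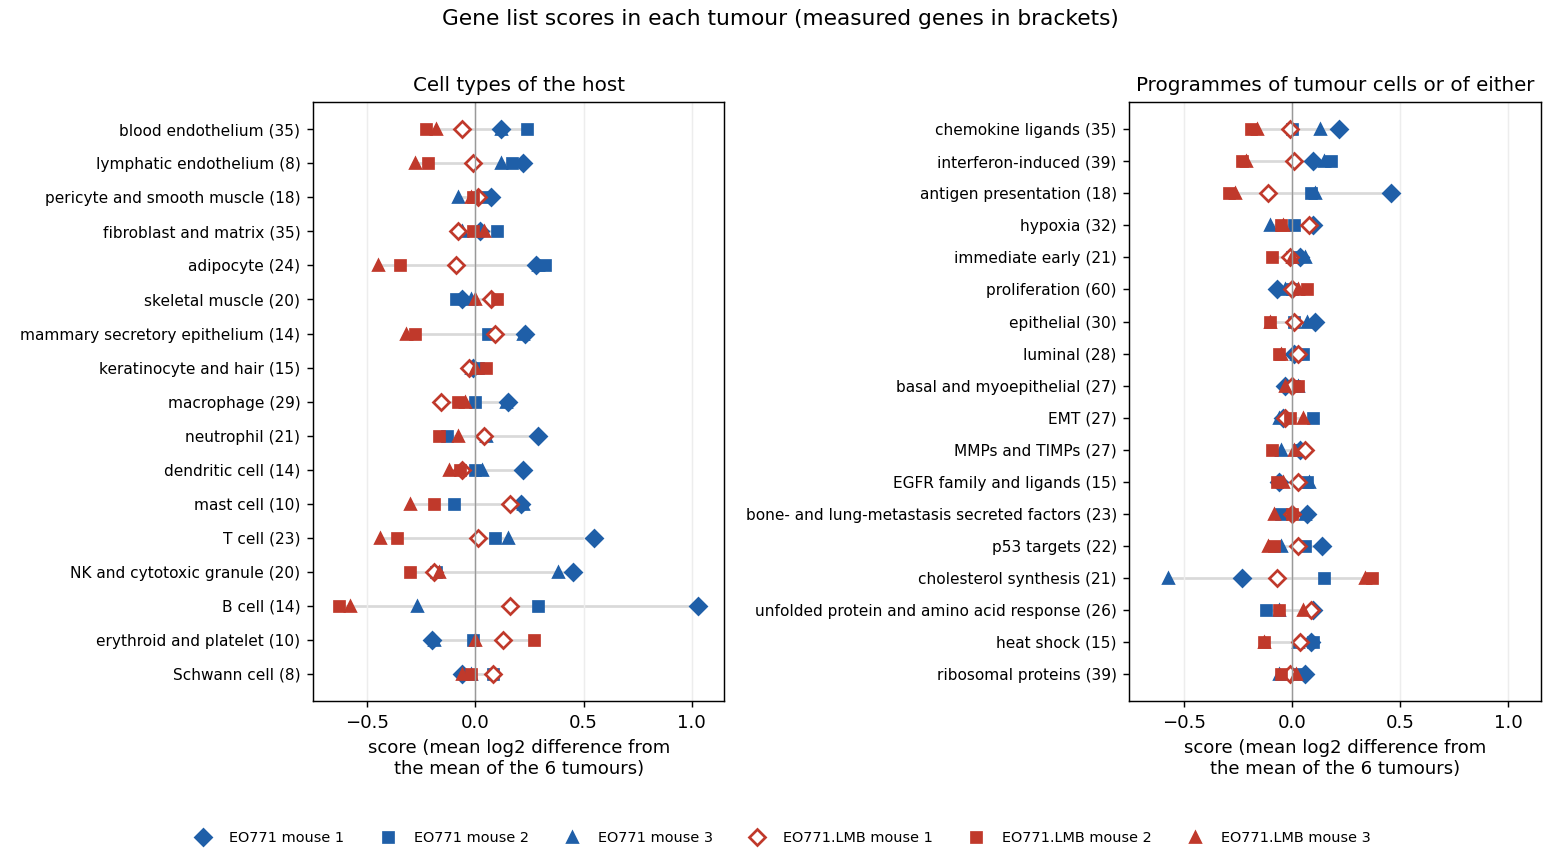
Score of each gene list (horizontal axis, mean over its genes of the log2 difference from the mean of the 6 tumours) in each tumour, with host cell types on the left and programmes of tumour cells or of either on the right; blue symbols are EO771 and red symbols EO771.LMB. The adipocyte scores of the EO771 tumours lie between 0.28 and 0.32 and those of EO771.LMB between -0.45 and -0.09; most tumour-cell lists lie near 0 except cholesterol synthesis.

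Interferon-induced genes and genes of antigen presentation can be expressed by tumour cells and host cells alike. Of 39 interferon-induced genes 12 were lower and 0 higher, against 4.52% and 4.29% of all genes, with a median of -0.23. Without overlap 16 were lower and 0 higher, against 7.18% and 8.86%. The score was 0.10, 0.18 and 0.15 in EO771 against 0.01, -0.23 and -0.21 in EO771.LMB. Cxcl9, a chemokine induced by interferon gamma that draws T cells, read 11.11, 10.73 and 11.11 in EO771 against 9.69, 9.60 and 9.76 in EO771.LMB: the 3 EO771.LMB tumours were alike and all well below the EO771 tumours (-1.30 ± 0.29, adjusted p = 0.159). Gbp4, a guanylate-binding protein, read 8.98, 8.80 and 9.03 in EO771 against 8.22, 7.94 and 7.63 in EO771.LMB (-1.01 ± 0.33). Oas2, which senses double-stranded RNA, read 9.36, 8.97 and 9.34 in EO771 against 8.81, 8.64 and 8.33 in EO771.LMB (-0.63 ± 0.17). Zbp1, a sensor of nucleic acids, read 9.46, 9.33 and 9.32 in EO771 against 9.03, 8.65 and 8.89 in EO771.LMB (-0.51 ± 0.14). None of these 3 overlapped. Isg15, a ubiquitin-like protein, differed by 0.01 ± 0.31, Ifit1 by -0.13 ± 0.20 and Bst2 by 0.00 ± 0.14, so the list was uneven.

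The promoters of these genes are shown because the genes of the list differed unevenly. Interferon-stimulated response elements were searched as GAAA, any 2 bases and GAAA again, and gamma-activated sites as TTCNNNGAA, on both strands, in RefSeq windows (GRCm38.p6) from 250 bases before to 50 after the start of each gene. Of 28 interferon-induced genes with a window, 17 (60.7%) held the first, against 3.99% of all 27025 genes with one, and 6 (21.4%) held the second, against 9.55%. Of the 17 with a response element 6 were lower in EO771.LMB at an unadjusted p under 0.05, and of the 11 without 2 were. Gbp5 read 9.19, 9.08 and 9.39 in EO771 against 8.80, 8.42 and 8.34 in EO771.LMB. Ifih1, an RNA sensor, read 10.98, 11.25 and 11.03 in EO771 against 10.86, 10.68 and 10.48 in EO771.LMB. Both were lower without overlap, whereas in Isg15 the groups overlapped, at 10.62, 10.92 and 10.76 in EO771 against 10.70, 10.53 and 11.10 in EO771.LMB. Their windows follow, with the matches in capitals: Gbp5 (chr3:142496684-142496983, plus strand) held 1 response element and 2 gamma-activated sites, Ifih1 (chr2:62646206-62646505, minus strand) held 1 response element, and Isg15 (chr4:156200769-156201068, minus strand) held 3 overlapping ones. Cxcl9 (chr5:92328030-92328329, minus strand), the gene of this list that differed most, held neither in its window.
Gbp5: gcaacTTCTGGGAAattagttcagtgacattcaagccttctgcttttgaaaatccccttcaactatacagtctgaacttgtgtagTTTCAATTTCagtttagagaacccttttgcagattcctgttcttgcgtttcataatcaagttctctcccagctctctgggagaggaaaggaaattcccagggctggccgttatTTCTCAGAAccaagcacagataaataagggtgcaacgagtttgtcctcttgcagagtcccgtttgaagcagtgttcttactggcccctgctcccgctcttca
Ifih1: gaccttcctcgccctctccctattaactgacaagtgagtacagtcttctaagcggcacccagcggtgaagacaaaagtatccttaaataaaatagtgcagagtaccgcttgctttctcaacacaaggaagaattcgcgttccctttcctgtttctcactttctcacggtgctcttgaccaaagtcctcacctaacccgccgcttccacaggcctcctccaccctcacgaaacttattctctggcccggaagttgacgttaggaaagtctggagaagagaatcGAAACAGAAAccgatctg
Isg15: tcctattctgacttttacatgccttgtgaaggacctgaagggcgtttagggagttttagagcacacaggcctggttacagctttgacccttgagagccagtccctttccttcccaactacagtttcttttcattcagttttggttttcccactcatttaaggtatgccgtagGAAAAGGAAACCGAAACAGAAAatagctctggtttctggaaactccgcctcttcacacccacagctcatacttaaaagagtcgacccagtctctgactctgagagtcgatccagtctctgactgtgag
Cxcl9: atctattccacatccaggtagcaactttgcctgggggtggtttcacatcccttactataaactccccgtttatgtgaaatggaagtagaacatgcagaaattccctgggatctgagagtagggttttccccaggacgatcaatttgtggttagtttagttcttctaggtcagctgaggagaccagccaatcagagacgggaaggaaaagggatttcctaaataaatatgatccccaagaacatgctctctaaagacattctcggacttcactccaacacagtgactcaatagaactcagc

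A match to these letters is a description of the sequence and not a binding site. Isg15, with 3 overlapping response elements, differed by 0.01 ± 0.31, and Cxcl9, with 0 matches, by -1.30 ± 0.29. The 4 genes were picked after their values were seen, so nothing is read from matches against differences among them.

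On the antigen presentation list all 18 measured genes had a negative difference, with a median of -0.26. At an unadjusted p under 0.05, 7 were lower, against 4.52% of all genes. Without overlap 11 were lower, against 7.18%. The class II genes led. H2-Aa read 10.58, 9.58 and 9.69 in EO771 against 9.32, 8.72 and 8.94 in EO771.LMB (-0.96 ± 0.31), without overlap. H2-Eb1 read 9.22, 8.13 and 8.35 in EO771 against 8.03, 7.46 and 6.92 in EO771.LMB (-1.10 ± 0.37). Cd74, the invariant chain, read 9.40, 8.49 and 8.63 in EO771 against 8.34, 7.58 and 7.78 in EO771.LMB (-0.94 ± 0.32). The class I genes had smaller differences. H2-K1 read 10.36, 9.97 and 10.12 in EO771 against 10.04, 9.82 and 10.10 in EO771.LMB (-0.16 ± 0.11), and B2m, the class I light chain, read 13.06, 13.30 and 13.26 in EO771 against 13.12, 13.16 and 12.65 in EO771.LMB (-0.23 ± 0.13). EO771 mouse 1, which had the highest T and B cell scores, was also the highest for these class II genes. The part of leukocyte content in these values was not tested. Against 4.52% lower and 4.29% higher over all genes, 7 of 35 chemokine ligands were lower and 0 higher. Besides Cxcl9 these included Ccl8, which draws monocytes (-0.85 ± 0.26), Ccl19, which guides T cells and dendritic cells (-0.67 ± 0.22), and Cxcl13, which draws B cells, at 9.28, 8.62 and 8.29 in EO771 against 8.25, 5.91 and 5.66 in EO771.LMB (-2.12 ± 0.74). The hypoxia and immediate early lists had medians of 0.03 and -0.02. Btg2, an antiproliferative gene that p53 also induces, read 7.53, 7.39 and 7.26 in EO771 against 6.80, 6.61 and 6.78 in EO771.LMB (-0.66 ± 0.14). Dusp1 and Dusp2, phosphatases of MAP kinases, differed by -0.43 ± 0.16 and -0.34 ± 0.13. Of the hypoxia genes Adm, adrenomedullin, differed by 0.44 ± 0.18, Ankrd37 by 0.26 ± 0.12 and Pfkfb3, a regulator of glycolysis, by -0.32 ± 0.12.

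**Figure D3:**
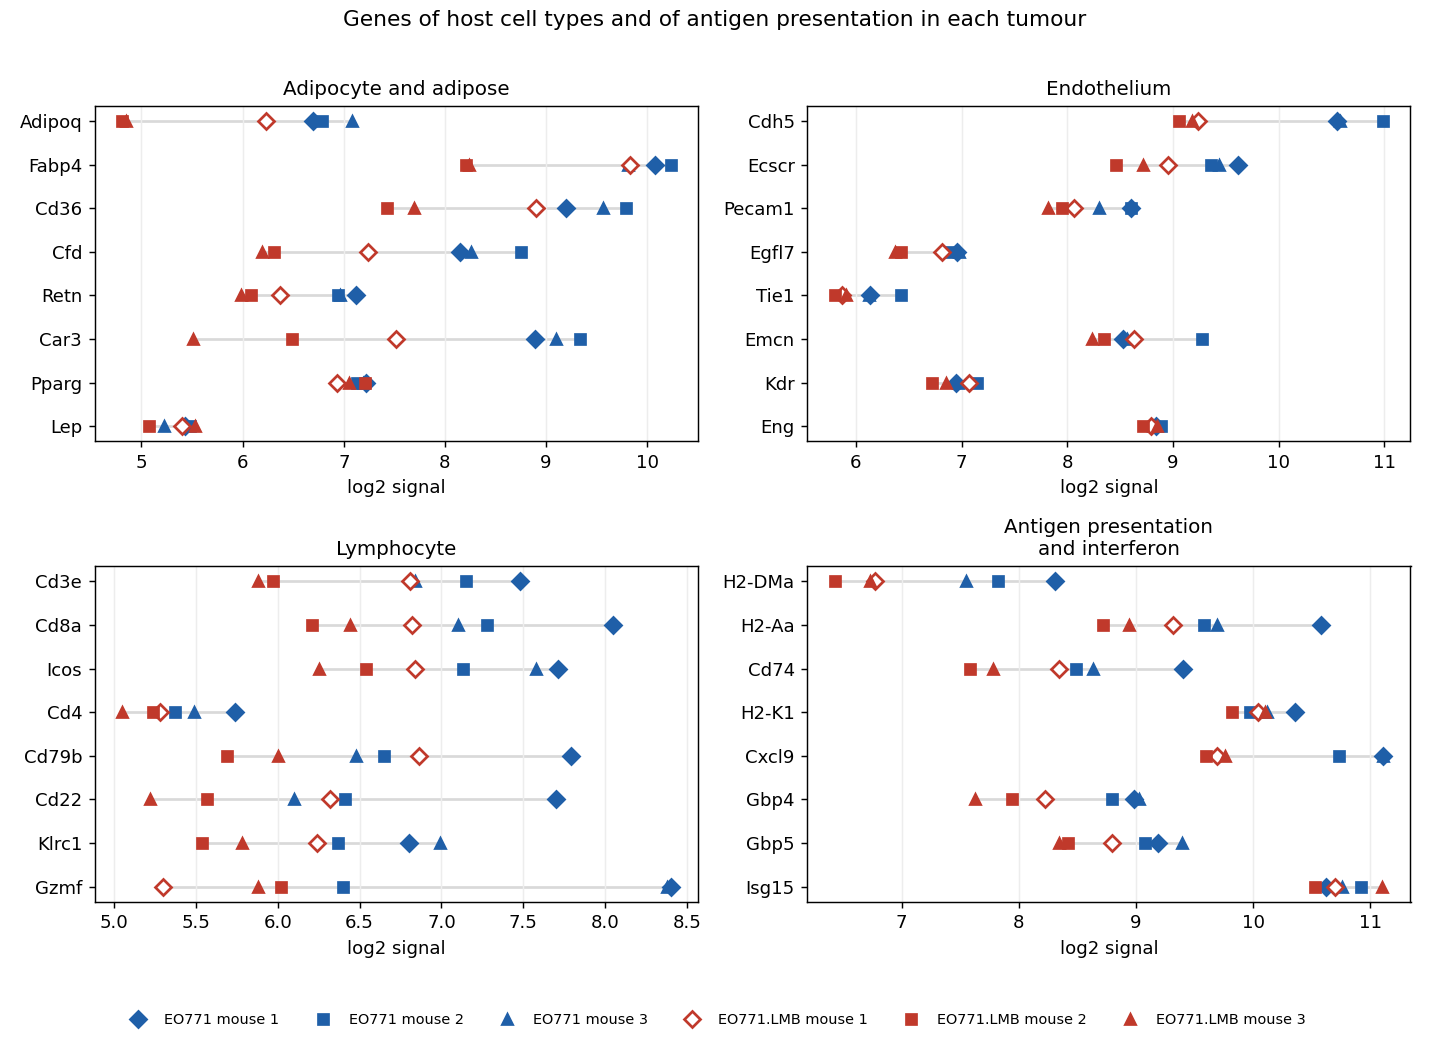
Log2 signal (horizontal axes) in each tumour of genes of adipocytes, endothelium, lymphocytes, and antigen presentation with interferon response; blue symbols are EO771 and red symbols EO771.LMB, with EO771.LMB mouse 1 as an open diamond. Cdh5, H2-DMa and Cxcl9 separate the groups with the 3 EO771.LMB tumours together, whereas in Adipoq, Fabp4 and Cd3e mouse 1 lies beside the EO771 tumours; the genes were picked from the lists to show both kinds.

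Among tumour-cell programmes, cholesterol synthesis was the exception. All 21 measured genes had a positive difference, with a median of 0.39. At an unadjusted p under 0.05, 9 were higher and 0 lower, against 4.29% and 4.52% of all genes. Only 3 did not overlap, all higher, against 8.86% of all genes. The EO771 tumours differed among themselves: the score was -0.23, 0.15 and -0.57 in EO771 against -0.07, 0.37 and 0.34 in EO771.LMB. EO771 mouse 2 was above EO771.LMB mouse 1, and EO771 mouse 3 was the lowest. Hsd17b7, which acts in the removal of the C4 methyl groups, read 8.99, 9.07 and 8.51 in EO771 against 9.41, 9.66 and 9.96 in EO771.LMB (0.82 ± 0.19, adjusted p = 0.194). Stard4, a sterol carrier, read 8.30, 8.37 and 7.99 in EO771 against 8.55, 8.82 and 8.90 in EO771.LMB (0.54 ± 0.13). Mvd, of the mevalonate pathway, read 6.79, 6.89 and 6.35 in EO771 against 7.07, 7.32 and 7.31 in EO771.LMB (0.56 ± 0.15). These are the 3 without overlap. Insig1, a sterol-induced regulator of the pathway, read 10.37, 10.94 and 10.15 in EO771 against 10.69, 11.54 and 11.56 in EO771.LMB. The transcription factor gene Srebf2 differed by 0.25 ± 0.15. A sterol element, searched as TCACNCCAC on both strands, was in 1 of the 13 windows of this list (7.69%), against 1.44% of all genes. That one was Hmgcs1 (chr13:119690101-119690400, plus strand), an early synthase of the pathway, which read 9.52, 10.21 and 9.13 in EO771 against 9.86, 10.39 and 10.37 in EO771.LMB (0.59 ± 0.23); its match is in capitals.
Hmgcs1: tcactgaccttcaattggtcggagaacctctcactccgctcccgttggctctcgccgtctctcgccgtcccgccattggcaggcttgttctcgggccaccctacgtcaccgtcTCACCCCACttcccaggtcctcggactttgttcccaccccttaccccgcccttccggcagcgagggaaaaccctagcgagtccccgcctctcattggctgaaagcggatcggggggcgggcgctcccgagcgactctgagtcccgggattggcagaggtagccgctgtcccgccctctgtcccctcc

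Proliferation genes differed by small amounts, more often upwards. Of 60, 4 were higher and 0 lower at an unadjusted p under 0.05, against 4.29% and 4.52% of all genes. Without overlap, 11 of the 60 were higher and 3 lower, against 8.86% and 7.18% of all genes. The median was 0.05, and 41 of the 60 differences were positive. Gins1 and Mcm4, of the replicative helicase, differed by 0.29 ± 0.09 and 0.32 ± 0.11, Rrm2, of ribonucleotide reductase, by 0.26 ± 0.12, the transcription factor gene Mybl2 by 0.36 ± 0.14, and Mki67, the antigen Ki-67, by 0.05 ± 0.12. The epithelial list had a median of -0.11 and 3 of 30 genes lower, among them Krt7 (-0.46 ± 0.14) and Cdh1 (-0.36 ± 0.17). The luminal, basal and mesenchymal transition lists had medians of -0.04, -0.02 and -0.01. Single members stood out. Foxc1, a transcription factor of basal-like tumours, read 5.55, 5.63 and 5.66 in EO771 against 6.10, 6.17 and 6.17 in EO771.LMB (0.53 ± 0.12). Lama3, a laminin chain, read 6.46, 6.38 and 6.51 in EO771 against 6.78, 7.12 and 7.08 in EO771.LMB (0.54 ± 0.12). Wnt5a, a ligand of noncanonical Wnt signalling, read 5.84, 5.83 and 5.73 in EO771 against 6.21, 6.88 and 6.79 in EO771.LMB (0.83 ± 0.20). These were higher without overlap. All Foxc1 values, and Wnt5a in EO771 and in EO771.LMB mouse 1, lay under the median of 6.40 over all clusters. Lama3 in EO771 lay near it. Tgfbi, an adhesive matrix protein, was lower without overlap, at 11.10, 11.09 and 10.86 in EO771 against 10.54, 10.43 and 10.57 in EO771.LMB (-0.50 ± 0.11). None of these passed the adjusted threshold. Ptgs2, cyclooxygenase 2, read 9.15, 8.44 and 9.20 in EO771 against 8.40, 7.96 and 7.91 in EO771.LMB (-0.84 ± 0.20), and Ereg, the EGFR ligand epiregulin, read 8.98, 8.78 and 9.32 in EO771 against 9.54, 9.59 and 9.43 in EO771.LMB (0.49 ± 0.14). Greb1, an oestrogen-induced gene, differed by -0.59 ± 0.14, the apoptosis inhibitor gene Bcl2 by 0.40 ± 0.13, Cav2 by 0.33 ± 0.15, the integrin gene Itgb3 by -0.39 ± 0.13, Timp3, a metalloproteinase inhibitor, by -0.47 ± 0.15 and Mmp25 by -0.25 ± 0.11. Heat shock genes had a median of -0.11, and ribosomal protein genes -0.03. Dnaja1, a cochaperone, differed by -0.30 ± 0.11, the ribosomal protein gene Rpl11 by -0.12 ± 0.08, and Atf4 and Pdia4, of the unfolded protein response, by 0.28 ± 0.17 and -0.26 ± 0.13. Lists of the EGFR family and its ligands, p53 targets, secreted factors of bone and lung metastasis, metalloproteinases with their inhibitors, and the unfolded protein response had medians of -0.16, -0.09, -0.06, -0.05 and 0.05, each with members on both sides of 0.

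Of the genes the study names, Mmp3, Pthlh and S100a8 were higher without overlap. Pthlh, the parathyroid hormone-related protein that acts on bone, read 8.26, 7.90 and 8.28 in EO771 against 8.48, 9.67 and 9.40 in EO771.LMB, with mouse 1 just above the EO771 range (1.04 ± 0.25, adjusted p = 0.216). Mmp9 and Mmp2, the gelatinases, differed by -0.04 ± 0.21 and -0.37 ± 0.23, and S100a9, the partner of S100a8, by 0.18 ± 0.25. The receptor genes were close: Esr1 read 5.76, 5.71 and 5.93 in EO771 against 5.84, 5.76 and 5.94 in EO771.LMB (0.04 ± 0.13), Esr2 differed by 0.17 ± 0.11, Pgr by -0.39 ± 0.39, Erbb2 by 0.22 ± 0.17, and Egfr by -0.27 ± 0.14. Trp53 differed by -0.21 ± 0.15 and Tlr4 by -0.11 ± 0.08. The same contrast was set against that of 4T1.2, which the labels class as metastatic, minus 67NR, which they class as non-metastatic. The pairs differed at an adjusted p under 0.05 in 10.2% of clusters, among them 6 of the 7 called in EO771.LMB, Pdpn being the exception. The 7 were chosen on one side of this difference, so nothing is read from that count.

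**Figure D4:**
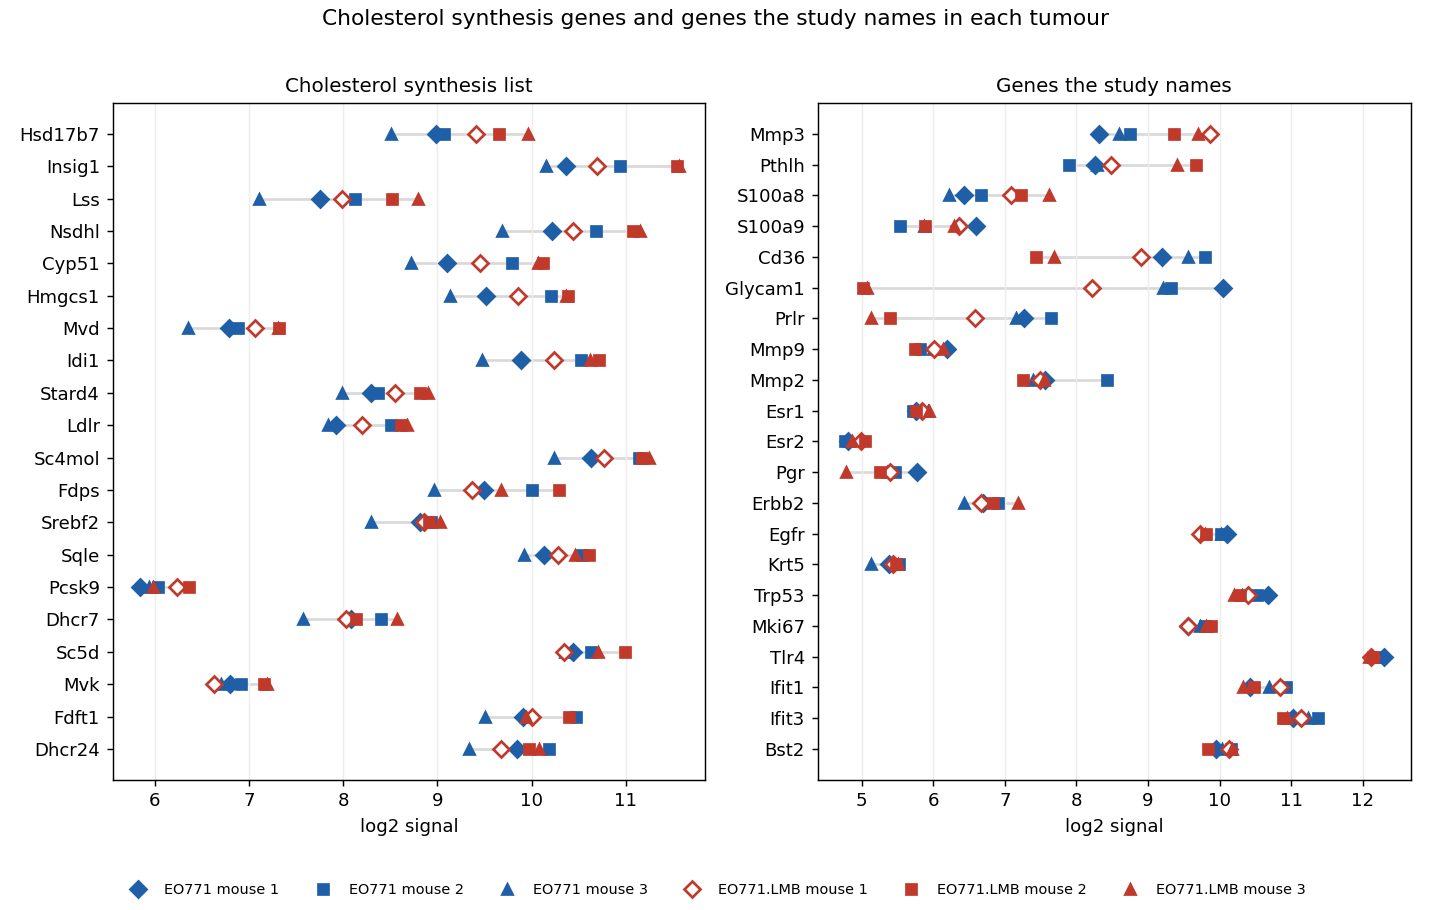
Log2 signal (horizontal axes) in each tumour of genes of the cholesterol synthesis list, ordered by difference, and of the 21 genes the study names; blue symbols are EO771 and red symbols EO771.LMB, with EO771.LMB mouse 1 as an open diamond. In most cholesterol genes EO771.LMB mice 2 and 3 are highest and EO771 mouse 3 lowest, and among the named genes Glycam1 spans from 5.02 to 10.05.

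The EO771.LMB tumours were not alike, and mouse 1 is described by itself. It lay more than 1 unit above both other EO771.LMB tumours in 41 genes and below both in 10. The corresponding counts were 6 and 3 for mouse 2 and 8 and 29 for mouse 3, so mouse 3 stood apart as well, mostly downwards. In the EO771 group, mouse 1 was above both others in 39 genes and below in 4. Correlations of whole arrays (over clusters, which are not replicates) were 0.989 between EO771.LMB mice 1 and 2 and 0.983 between mice 1 and 3, and 0.987 to 0.989 between EO771.LMB mouse 1 and the EO771 tumours. EO771.LMB mouse 2 was similar, at 0.984 to 0.988 with the EO771 tumours, while mouse 3 was at 0.978 to 0.981.

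In 36 genes EO771.LMB mice 2 and 3 were both more than 1 unit below every EO771 tumour. EO771.LMB mouse 1 was nearer to the EO771 mean than to that of mice 2 and 3 in 25 of them, and its median position, with 0 at the EO771 mean and 1 at the mean of mice 2 and 3, was 0.39. Such genes are chosen without the mouse that is then placed. With mouse 2 placed in the same way it was nearer to the EO771 mean in 0 of 9 genes, and with mouse 3 in 0 of 8. The genes in which mouse 1 lay furthest above mice 2 and 3 were Glycam1 and Cxcl13, given above, and 6 others. Hp, the haemoglobin-binding plasma protein haptoglobin, read 9.02, 8.90 and 8.76 in EO771 against 8.15, 6.27 and 6.05 in EO771.LMB. Il24, a cytokine of the interleukin 10 family, read 9.46, 9.53 and 9.43 in EO771 against 9.48, 7.11 and 7.17 in EO771.LMB, so mouse 1 had the level of EO771 while mice 2 and 3 were lower by more than 2 units. Immunoglobulin genes showed the same order among the EO771.LMB tumours: Igj, the joining chain, read 9.09, 6.78 and 4.78 in EO771 against 7.10, 4.58 and 4.97 in EO771.LMB. Igl-V1 read 10.14, 7.15 and 6.42 in EO771 against 7.57, 5.49 and 5.55 in EO771.LMB. LOC100046350, known only by that identifier, read 10.95, 8.92 and 6.70 in EO771 against 8.81, 6.24 and 6.33 in EO771.LMB. All 3 were also spread widely among the EO771 tumours. Immunoglobulin segments are near copies that may share probes. Sema3a, a guidance molecule that repels axons and vessels, was of another kind. It read 6.73, 7.36 and 6.22 in EO771 against 10.19, 7.41 and 7.29 in EO771.LMB, so that mouse 1 was far above the other 5 tumours.

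Among genes in which mouse 1 lay furthest below mice 2 and 3, Aspn, the matrix proteoglycan asporin, read 7.19, 7.35 and 6.83 in EO771 against 7.19, 8.46 and 8.59 in EO771.LMB, and mouse 1 had the EO771 level. Slc13a3, a dicarboxylate transporter, read 7.66, 6.52 and 6.95 in EO771 against 6.57, 7.80 and 8.11 in EO771.LMB. Nlrp4e read 7.30, 7.14 and 7.14 in EO771 against 6.39, 8.02 and 7.97 in EO771.LMB, so that mouse 1 was below the EO771 tumours too. Wdr53, Sertad3, Clec12a, Olfr1353 and Zfp771 were the remaining 5, and their differences over the whole groups ran from -0.23 to 0.41.

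Without EO771.LMB mouse 1, 42 clusters were called lower (0.118%) and 12 higher (0.0337%), and all 7 calls made with it were among these 54. A group of 2 is assumed here to vary like the others. Mouse 1 was left out after its values were seen. Hp, Il24 and Aspn were picked above for its distance from mice 2 and 3. The added calls and adjusted p-values thus follow a choice made on the same values, and nothing further is read from them. Car3 differed by -3.10 (adjusted p = 0.0121), Hp by -2.73 (0.00235), Il24 by -2.33 (0.00187), Ubd by -2.28 (0.0126) and Cd36 by -1.95 (0.0106). Adipoq differed by -2.03 (0.0483) and Serpina3n, a protease inhibitor of the acute phase, by -1.83 (0.00545). Among the higher genes, Enpp3 differed by 1.63 (0.0114), Aspn by 1.40 (0.00923), Pthlh by 1.39 (0.0114) and Prkg2 by 1.33 (0.0114). Islr differed by 1.04 (0.0497), Csl by 0.95 (0.0109) and the protease gene Prss35 by 0.86 (0.0114), and Efhb had an adjusted p of 0.00919. The adipocyte list went from a median of -0.25 to -0.22 and blood endothelium from -0.16 to -0.23. The T cell list went from -0.48 to -0.61 and cholesterol synthesis from 0.39 to 0.54. Macrophage genes went from -0.20 to -0.08 and chemokine ligands from -0.23 to -0.14, so both medians shrank. Cdh5 differed by -1.59, against -1.55 with all 3 tumours.

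**Figure D5:**
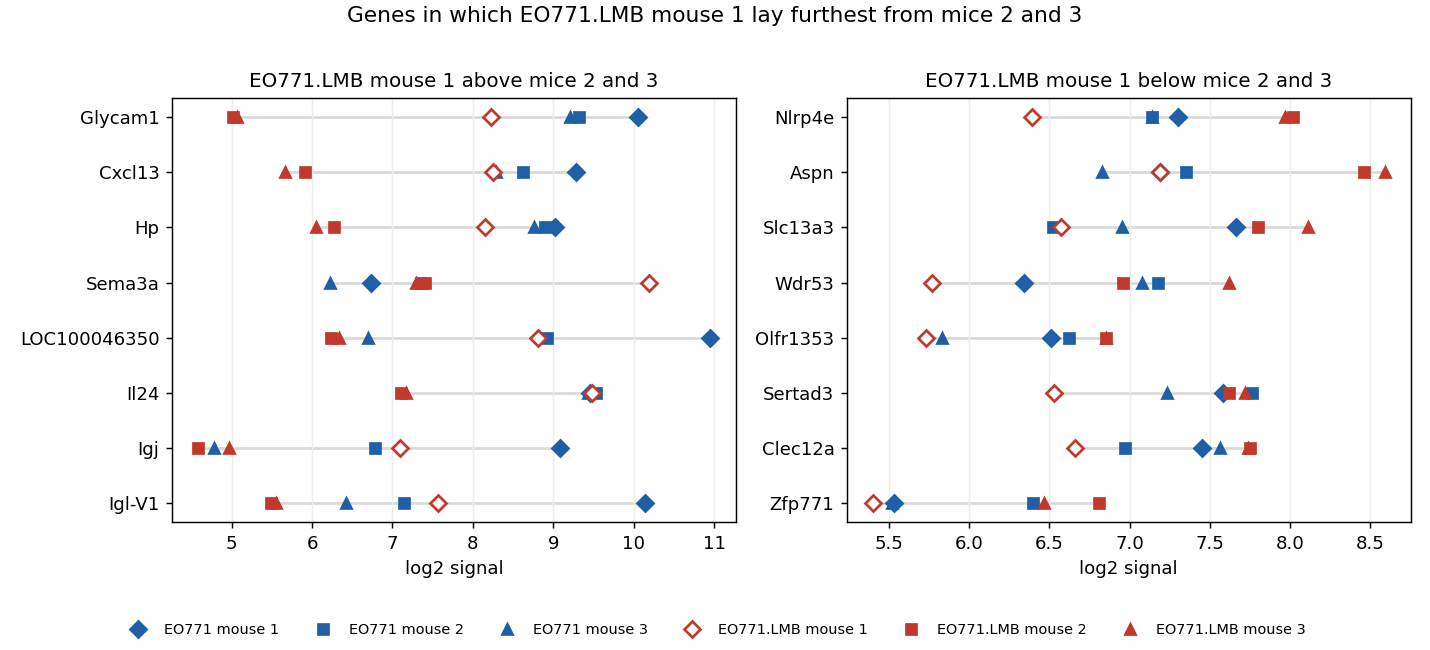
Log2 signal (horizontal axes) in each tumour of the 8 genes in which EO771.LMB mouse 1 (open diamond) lay furthest above, and of the 8 in which it lay furthest below, mice 2 and 3 (red square and triangle); blue symbols are EO771. In Glycam1, Cxcl13, Hp and Il24 mouse 1 sits at the EO771 tumours or at most 1 unit below them, and in Sema3a, at 10.19, above all other tumours.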

How the data were processed

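The arrays were Affymetrix Mouse Gene 1.0 ST, with RNA of 15 primary tumours, 3 from each of 5 lines. The deposited log2 signal of each transcript cluster had been background-adjusted and quantile-normalised by the authors. Their methods name GCRMA and the submitters' processing notes name RMA in Partek 6.6, so the background step is not settled. A dim cluster is therefore read with care. Array medians lay between 6.32 and 6.44, and no depth applies to arrays.

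Each gene was read from its brightest cluster by Gene Symbol (25440 of 35556 clusters had one, 22008 genes, of which 1857 had several clusters). Groups came from the labels, and tumours of a line are separate mice. limma 3.58.1 in R 4.3.3 fitted all 15 tumours with line as the only term, the contrast was EO771.LMB minus EO771, and p-values were adjusted by Benjamini-Hochberg over all clusters and, separately, over 1 cluster per gene. The methods used one-way ANOVA, run here as an alternative. The other pair, 4T1.2 minus 67NR, entered as a difference between contrasts.

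The members and the 35 lists were chosen with earlier results of these data known. List genes were matched by symbol (760 genes) or older symbol (13), and 5 were not measured. Genes named in the text were taken from a rule: every called gene, genes the study names, the largest differences in each direction, list members of smallest p, and genes in which EO771.LMB mouse 1 stood furthest apart. Other list members, genes called only in the test of 1 cluster per gene and genes with promoter windows were chosen after their values were seen. Promoter windows were RefSeq sequence of GRCm38.p6, and 20585 genes matched that table by symbol. On simulated data for this comparison, over 35556 clusters, the test recovered 16 of 72 changes of 0.5, 55 of 70 of 1 and 55 of 58 of 2, with 7 false calls. The simulated noise was independent and normal, with 1 spread per cluster for all lines. Some genes spread more among the EO771.LMB tumours (Glycam1, SD 1.84 against 0.45 in EO771), and for such genes these rates may not hold. Alternatives were array scaling, a signal filter, the test, the clusters tested, a replicate block and leaving out each tumour. Another 30 columns of single samples were not used. The values of a few genes that the rule names are not reported here.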

Additional observations from a re-analysis of the deposited data

Results flagged for a closer look

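The difference between EO771.LMB and EO771 was set against that between 4T1.2 and 67NR, a metastatic and a non-metastatic line grown in Balb/c mice, in 1 limma contrast over all 15 tumours. Of 35556 clusters, 3618 (10.2%) differed between the pairs at an adjusted p under 0.05. Of the genes called in EO771.LMB and those the study names, 15 did so, and the values follow as the difference between pairs with both parts.

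Among called genes, Cdh5 gave -1.15 (-1.55 in EO771.LMB and -0.40 in 4T1.2, adjusted p = 6.1e-04), Trim36 -0.99 (-1.23 and -0.24, adjusted p = 0.00271) and Pla2g16 -1.02 (-1.13 and -0.10, adjusted p = 0.01). A130057D12Rik gave -0.97 (-1.02 and -0.05, adjusted p = 8.8e-04), ENSMUSG00000062319 -2.51 (-2.20 and 0.31, adjusted p = 3.9e-05) and the cluster with no gene name -1.23 (-0.82 and 0.41, adjusted p = 1.5e-04). In these 6 the EO771.LMB difference was below the 4T1.2 difference, which was above 0 in ENSMUSG00000062319 and the cluster with no gene name. They were chosen for 1 of the 2 differences compared, so their number is not read against 10.2%. Pdpn, the other call, had a difference between pairs of 0.15 (adjusted p = 0.827).

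Among the genes the study names, the protease and calcium-binding protein genes were higher in 4T1.2 by more than in EO771.LMB. Mmp3 gave -2.51 (1.09 and 3.61, adjusted p = 1.3e-05), Mmp9 -1.67 (-0.04 and 1.64, adjusted p = 0.00209), S100a8 -1.16 (0.87 and 2.03, adjusted p = 0.0497) and S100a9 -1.67 (0.18 and 1.85, adjusted p = 0.00628). Egfr gave -1.03 (-0.27 and 0.77, adjusted p = 0.00322) and Ifit3 -1.17 (-0.23 and 0.94, adjusted p = 0.0189). The other 3 were lower in 4T1.2 than in 67NR: Esr1 gave 0.96 (0.04 and -0.92, adjusted p = 0.00342), Erbb2 0.81 (0.22 and -0.59, adjusted p = 0.0447) and Trp53 0.78 (-0.21 and -0.99, adjusted p = 0.0296). The pairs also differ in mouse strain, which cannot be told apart from the lines.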

How the results depend on the processing

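The number of called clusters depended on the setting more than the differences did. Against 7 lower, the count was 4 with only clusters above the median signal, 4 in one-way ANOVA over the 5 types, 0 in one-way ANOVA over the 6 tumours, and 4 in limma on the 6 tumours. It was 30, 34 and 31 with only clusters with a symbol, the brightest cluster per gene and the mean of the clusters of a gene. Against 0 higher, those 3 settings gave 10, 14 and 11, and limma on the 6 tumours gave 1. Leaving out 1 tumour gave 4 to 42 lower and 0 to 12 higher. The most were called without EO771.LMB mouse 1 (42 and 12), 14 were lower without EO771 mouse 3, and 4 were lower without 67NR mouse 1, 67NR mouse 2 or EO771.LMB mouse 3. The ANOVA of the 6 tumours called 1477 higher and 1278 lower at an unadjusted p under 0.05. Those are the counts the study gives for this pair at the same unadjusted threshold. At that threshold the higher clusters were 644, against 1392, among those above the median signal. Centring each array on its median turned 1392 higher and 1560 lower into 1777 and 1287, and quantile normalisation gave 1525 and 1447, with the median of all clusters at 0.035 and 0.015 against 0.013.

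The tumour numbers did not pair the samples: deviations of same-numbered tumours correlated at 0.0766, 0.013 and -0.0655. With the replicate block 8 clusters were lower and 1 higher, Enpp3. All 7 calls kept their direction in each setting and all 7 were lost in the ANOVA of the 6 tumours. Pla2g16, Pdpn and the cluster with no gene name were each lost when any of several single tumours was left out.

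Small differences turned in sign when 1 tumour was left out. S100a9 ran from -0.05 (without EO771 mouse 2) to 0.48, Mmp9 from -0.13 to 0.08 (above 0 without EO771.LMB mouse 2, and at 0.06 without EO771 mouse 1), Esr1 from 0.00 (without EO771.LMB mouse 3) to 0.11, and Mki67 from -0.02 (without EO771 mouse 1, and -0.01 without EO771.LMB mouse 2) to 0.15. Bst2 ran from -0.07 to 0.10 (without EO771.LMB mouse 2, and 0.05 without EO771 mouse 2), and was 0.02 with centred arrays and 0.01 with quantile normalisation. Tlr4 was 0.03 with the mean of its clusters. Of genes chosen for EO771.LMB mouse 1, Nlrp4e ran from -0.01 (without EO771.LMB mouse 2) to 0.80, and Wdr53 from -0.50 to 0.42 (without EO771.LMB mouse 1; 0.07 and 0.02 without EO771 mice 2 and 3). Sertad3 ran from -0.45 to 0.15 (without EO771.LMB mouse 1), and Olfr1353 from -0.09 (without EO771 mouse 3, and -0.03 without EO771.LMB mouse 2 or 3) to 0.53. Clec12a ran from -0.13 (without EO771.LMB mouse 2, EO771.LMB mouse 3 or EO771 mouse 2) to 0.41. The cause was not tested. List medians within 0.08 of 0 changed sign in some settings for 10 lists, among them those of mammary secretion, dendritic cells and hypoxia. With only clusters above the median signal, where fewer genes of a list remain, the median went from -0.25 to -0.75 for adipocytes, from -0.14 to -0.94 for lymphatic endothelium and from 0.08 to -1.65 for mammary secretion.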

Other observations

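Genes were also placed in order along the chromosomes, with 10197 genes above the median signal and 9717 runs of 25 neighbours. Most runs had a median difference near 0, and 1% lay below -0.13 and 1% above 0.152. The highest run was on chromosome X, from Tspyl2 to Figf, at 0.223, with 23 of 25 genes positive and 12 higher without overlap, against 8.86% of all genes. It was picked as the highest of all runs. The EO771 tumours scored -0.16, -0.08 and -0.12 on it. EO771.LMB mice 1, 2 and 3 scored 0.04, 0.19 and 0.10, so the groups did not overlap. It holds Sat1 and Sms, of polyamine metabolism, and Prdx4, a peroxiredoxin. A run on chromosome 5 from Zfp113 to Snx8 followed at 0.209, with Mcm7, of the replicative helicase, and Cops6, of the COP9 signalosome. Over the 628 genes of chromosome 5 the median was 0.072 and 423 were positive, and over the 543 of chromosome 8 it was 0.058, and in both chromosomes every EO771.LMB tumour scored above every EO771 tumour.

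On chromosome 19 the run from Vps37c to EG625046, with the Ms4a family, was at -0.254. On chromosome 11 the run that begins at Ccl7, with chemokine and Slfn genes, was at -0.226. On chromosome 17 the run from H2-K1 to Cfb was at -0.212, with 11 genes of 25 lower without overlap, against 7.18% of all genes. On chromosome 4 the run from D4Ertd22e to 2610305D13Rik, with Pdpn, Epha2 and Casp9, was at -0.203, with 10 lower without overlap. These were picked as the lowest runs and were not tested.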
